A study of Mus musculus with 14 samples.

Results

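The CC chemokines are a family of small secreted proteins with a pair of adjacent cysteines near the amino terminus. They bind G protein-coupled receptors on leukocytes and guide these cells along a gradient into tissue. In the liver, Kupffer cells, sinusoidal endothelial cells, stellate cells and arriving leukocytes are known sources, and receptor signalling through Gi proteins turns the gradient into directed movement. Described here are 10 members in mouse liver, Ccl2, Ccl3, Ccl4, Ccl5, Ccl6, Ccl7, Ccl8, Ccl9, Ccl12 and Ccl20, taken by gene symbol from the 17656 genes of the expression tables. The rule was the gene symbol, and members too low to test are described with the others.

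The study asked how loss of YTHDF1, a protein that binds m6A-modified mRNA, alters hepatitis caused by concanavalin A (ConA), a plant lectin that activates T cells. Livers of 14 mice were sequenced, 1 library per mouse. WT saline (n = 3) and KO saline (n = 3) mice received saline, and WT ConA (n = 4) and KO ConA (n = 4) mice received ConA at 8 mg/kg, both given intravenously, and the liver was taken 8 h later. KO stands for the label Ythdf1 knockout, a deletion in the whole animal on the C57BL/6 background. The labels give no age for these mice, and the study's methods describe young adults. The study describes the ConA-treated mice of its liver sequencing as male. Values are TPM, transcript levels in which a gene is scaled by its length and each library sums to 1000000. Read totals were not used here, so the spread between mice was the measure of error, and limma fits on log2(TPM + 1) compared the groups. Only genes that reached 1 TPM in enough libraries were tested. A gene was called where its p, adjusted by Benjamini-Hochberg over all genes tested, was under 0.05. On this scale the change of a gene with low TPM is understated.

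The hepatocyte markers were present in every library, with Alb between 30310 and 87030 TPM. WT saline replicates 2 and 3 were nearly identical (median size of their log2 ratio 0.0858, against 0.237 to 1.39 in the other 17 replicate pairs), so results against WT saline were also computed with their mean as 1 mouse. The 3rd replicates of both ConA groups stood apart on the second principal component. Ythdf1 TPM ran from 12.0 to 13.9 in WT saline and 18.4 to 20.8 in KO saline, and from 18.7 to 25.6 in the WT ConA mice and 15.5 to 26.2 in the KO ConA mice, where the genotypes overlapped. Whole-gene TPM can hold reads from outside a deleted part, so these values do not check the genotype labels.

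Of the 10 members, 9 lie on chromosome 11 in 2 groups of neighbours (GRCm38.p6, RefSeq spans). Ccl2 (chr11:82035577-82037452), Ccl7 (chr11:82045712-82047525), Ccl12 (chr11:82101845-82103399) and Ccl8 (chr11:82115185-82116799), all on the plus strand, span 81.2 kb. Ccl5 (chr11:83525778-83530518), Ccl9 (chr11:83572917-83578636), Ccl6 (chr11:83587886-83593087) and Ccl3 (chr11:83647843-83649378), all on the minus strand, and Ccl4 (chr11:83648624-83664683) on the plus strand span 138.9 kb. The groups are 1409.0 kb apart, and Ccl20 stands alone at chr1:83116766-83119167. The RefSeq span of Ccl4 overlaps Ccl3 by 755 bases on the opposite strand, and strandedness is not given in the sources used here, so reads from that overlap cannot be told apart. In another annotation, GENCODE, Ccl4 spans chr11:83662584-83664683 and does not overlap Ccl3. Among the 50-base stretches of the longest coding transcript, 98.0% of those of Ccl9 and all of those of the other members occur in no other gene, so near-identical copies hardly affect these values.

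The promoter table of RefSeq (GRCm38.p6) holds 6 of the 10 members, Ccl3, Ccl6, Ccl8, Ccl9, Ccl12 and Ccl20. Each was searched over 250 bases before to 50 after the start site on both strands for the NF-kB consensus, the AP-1 motif TGANTCA, the GAS motif TTCNNNGAA bound by STAT factors and the C/EBP motif TTGCNNAA. NF-kB and AP-1 are transcription factors of the inflammatory response. The NF-kB consensus was found in Ccl9, starting at -35 from the start site, and in Ccl20, starting at -80, in both on the strand opposite to the gene, so the printed letters are its reverse complement. It occurs in 4.51% of the 32851 promoters of that length. The AP-1 motif was found in Ccl9 at -53, beside the NF-kB match without overlapping it, and occurs in 7.81% of promoters. None of the 4 motifs was found in Ccl3, Ccl6, Ccl8 or Ccl12. Of all promoters 8.3% hold GAS and 10.8% hold C/EBP. The 250 bases before the start site are printed 5′ to 3′ on the strand of the gene, with the NF-kB match in capitals. They are given for the member with the highest saline level (Ccl9) and the member hardly detected in any mouse (Ccl20). Also printed are Ccl3 and Ccl8, called higher in KO ConA against KO saline, in which none of these motifs was found. Ccl6 was called there as well and held none of these motifs, but is not printed. The printed stretches cover chr11:83578637-83578886 (minus strand) for Ccl9, chr1:83116516-83116765 (plus) for Ccl20, chr11:83649379-83649628 (minus) for Ccl3 and chr11:82114935-82115184 (plus) for Ccl8.
Ccl9: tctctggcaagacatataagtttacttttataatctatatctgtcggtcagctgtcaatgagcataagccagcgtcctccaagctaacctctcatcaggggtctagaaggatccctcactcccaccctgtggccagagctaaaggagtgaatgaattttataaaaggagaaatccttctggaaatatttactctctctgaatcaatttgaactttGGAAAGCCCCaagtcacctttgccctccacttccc
Ccl20: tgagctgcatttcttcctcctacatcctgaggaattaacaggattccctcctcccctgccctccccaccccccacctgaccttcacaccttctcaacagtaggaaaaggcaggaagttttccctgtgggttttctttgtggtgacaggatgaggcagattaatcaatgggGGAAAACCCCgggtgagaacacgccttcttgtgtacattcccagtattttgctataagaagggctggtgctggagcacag
Ccl3: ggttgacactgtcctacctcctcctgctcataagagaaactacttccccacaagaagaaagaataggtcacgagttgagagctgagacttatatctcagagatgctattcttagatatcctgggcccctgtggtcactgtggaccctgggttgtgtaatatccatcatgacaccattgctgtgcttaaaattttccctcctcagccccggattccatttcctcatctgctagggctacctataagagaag
Ccl8: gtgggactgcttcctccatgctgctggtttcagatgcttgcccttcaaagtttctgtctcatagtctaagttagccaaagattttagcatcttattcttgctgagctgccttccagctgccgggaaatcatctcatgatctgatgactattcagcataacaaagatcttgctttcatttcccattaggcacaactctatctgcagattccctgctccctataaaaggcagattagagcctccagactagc
A match of letters is a description of the window. Of the members that hold the NF-kB match, Ccl9 had the highest level of the family in saline livers and Ccl20 was listed at 0 in all 6 saline mice.

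**Figure D1:**
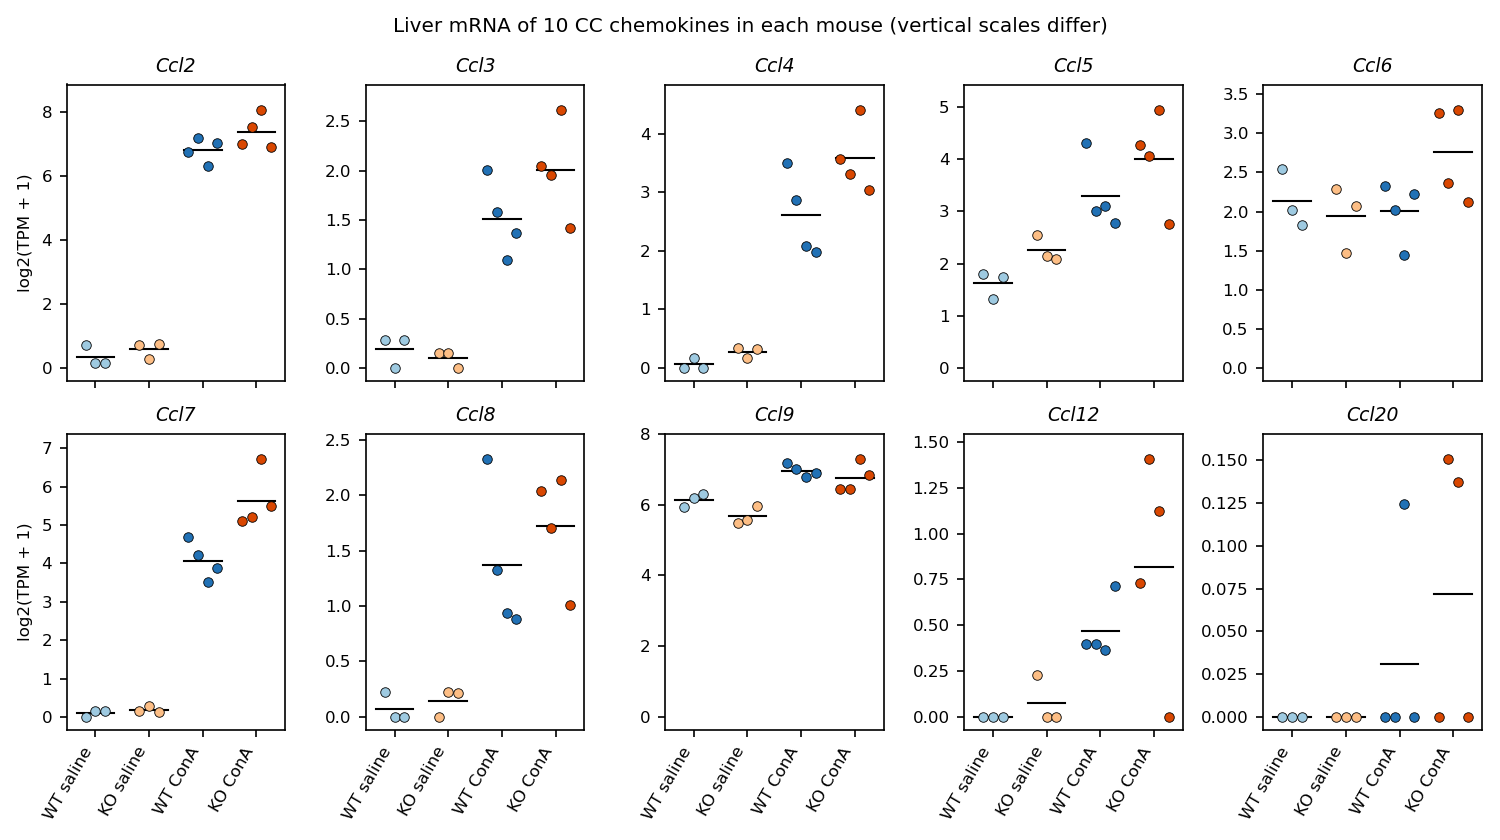
Level of each CC chemokine in each mouse as log2(TPM + 1), with 1 point per mouse in replicate order from left to right, a line at the group mean, and a separate vertical scale for each gene. Ccl2 lies below 1 TPM in all 6 saline mice and above 78 TPM in all 8 ConA mice, Ccl7 is the member whose 4 KO ConA points all lie above the 4 WT ConA points, and Ccl20 stays at or under 0.11 TPM.

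In the saline livers Ccl9 made up most of the family's mRNA. Ccl9, a ligand of CCR1 made by myeloid cells, had 59.6, 72.0 and 77.4 TPM in WT saline and 43.6, 46.7 and 61.3 TPM in KO saline mice, or 81.3% to 93.6% of the summed TPM of the 10 members. Ccl6, another CCR1 ligand and its neighbour on the chromosome, had 2.55 to 4.82 TPM in the WT and 1.76 to 3.90 TPM in the KO saline mice. Ccl5, which attracts T cells and NK cells, had 1.49 to 2.50 TPM in the WT and 3.27 to 4.85 TPM in the KO saline mice. The other 7 members stayed below 0.7 TPM in all 6 saline mice, where their order cannot be read, because neighbouring ranges overlap. In WT saline the ranges of Ccl9, Ccl6 and Ccl5 did not overlap, and in KO saline those of Ccl5 and Ccl6 did.

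The amount and the composition differed after ConA. The summed TPM of the members was 68.0 to 82.7 in WT saline and 52.7 to 69.0 in KO saline, and 212 to 316 in the WT ConA mice and 291 to 593 in the KO ConA mice. In WT ConA livers Ccl2 and Ccl9 stood side by side, with 34.1% to 47.2% and 40.7% to 51.0% of the sum, and their TPM ranges overlapped. In KO ConA livers Ccl2 took 40.6% to 53.9% and Ccl9 25.1% to 38.1%. Ccl7 took 4.89% to 7.84% of the sum in the WT ConA mice and 10.6% to 17.5% in the KO ConA mice. The shares of Ccl7 and of Ccl9 did not overlap between the genotypes after ConA, and those of the other members did. Shares of 1 sum depend on each other, and the TPM of Ccl9 itself overlapped. It was 108 to 143 TPM in the WT ConA mice and 85.6 to 154 TPM in the KO ConA mice. These shares are described without a test. They do not depend on the scaling of a library, since every member of a library is scaled alike.

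**Figure D2:**
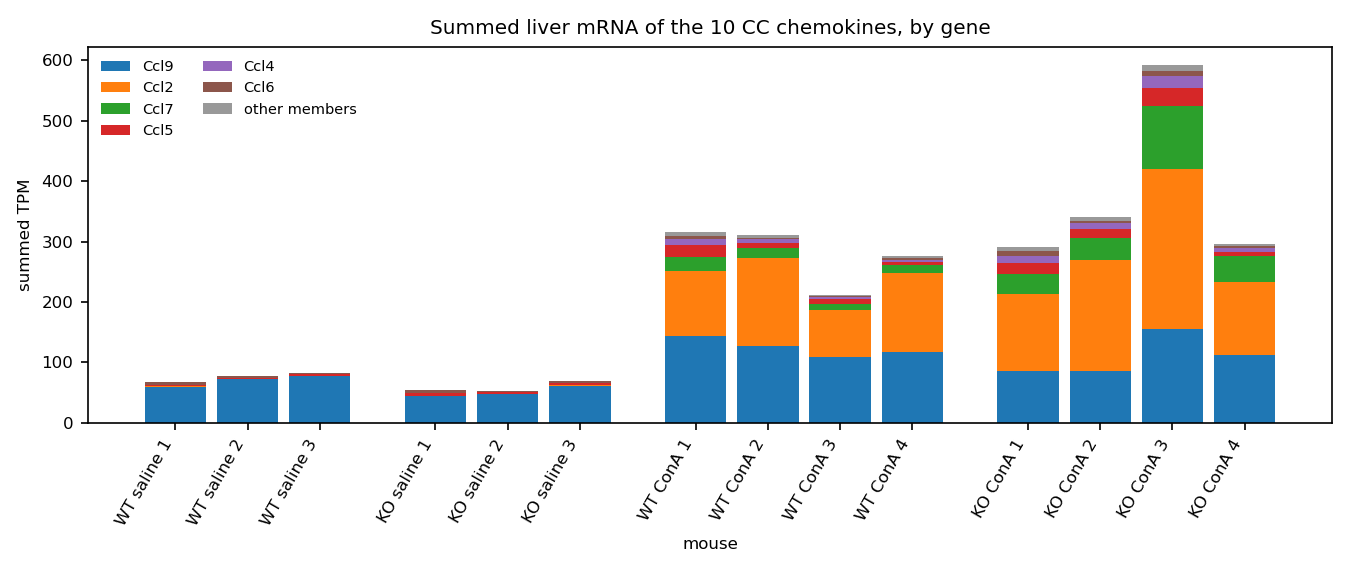
Summed TPM of the 10 CC chemokines in each of the 14 mice (bars from 0), divided by gene, with the 4 least abundant members drawn together. Saline bars are nearly all Ccl9, ConA bars add Ccl2 and Ccl7, and KO ConA replicate 3 has the highest sum, 593 TPM.

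Comparing WT ConA with WT saline asks which members the hepatitis raised in normal livers. Of the 10 members, 7 passed the filter on low values, and 6 of these were called, all higher, where 22.0% of the 10768 genes tested were called higher. In the same 6 every ConA mouse lay above every saline mouse, as in 23.3% of genes tested. The median log2 fold change of the 7 was 1.68, against -0.07 over all genes tested. Ccl2, Ccl3, Ccl4 and Ccl7 were under 1 TPM in every saline mouse, so they passed the filter through the ConA mice alone and had to differ. Their counts and this median are therefore no support for a rise of the family. In bulk liver RNA, fewer or more cells of a type and less or more RNA per cell cannot be told apart. With WT saline replicates 2 and 3 averaged, 7 members were called. The member added was Ccl8, since the filter then asked for fewer libraries. It passed through the ConA mice alone and had to differ, and Ccl6 was still not called.

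Among the neighbours of Ccl2, the ligands of CCR2 and related receptors that draw monocytes out of blood, the log2 fold changes of Ccl2 and Ccl7 were the largest of the 7 tested members. Ccl2 had 0.64, 0.11 and 0.11 TPM in WT saline and 108, 146, 78.5 and 129.95 TPM in WT ConA mice (log2 fold change 6.49, SE 0.24, adjusted p 1.78e-07). Every ConA mouse lay far above every saline mouse. Ccl7 had 0, 0.11 and 0.11 TPM in WT saline and 24.8, 17.5, 10.4 and 13.7 TPM in WT ConA (3.97, SE 0.25, adjusted p 3.24e-06). Ccl8, which in mice acts on CCR8, had 0.17, 0 and 0 TPM in WT saline and 4.01, 1.51, 0.91 and 0.85 TPM in WT ConA mice and was not tested. Replicate 1 stood above the other WT ConA mice in both Ccl7 and Ccl8. Ccl12, a CCR2 ligand of mice, was listed at 0 in the 3 WT saline mice and had 0.29 to 0.64 TPM in WT ConA.

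The neighbours of Ccl5 had smaller log2 fold changes. Ccl3 and Ccl4, adjacent genes for ligands made by activated macrophages and lymphocytes, both rose. Ccl3 had 0.22, 0 and 0.22 TPM in WT saline and 3.02, 1.98, 1.14 and 1.58 TPM in WT ConA mice (log2 fold change 1.32, SE 0.21, adjusted p 0.000648). Ccl4 had 0, 0.13 and 0 TPM in WT saline and 10.4, 6.33, 3.22 and 2.94 TPM in WT ConA mice (2.55, SE 0.34, adjusted p 0.00022). TPM of Ccl4 was 1.86 to 3.43 times that of Ccl3 in the WT ConA mice. Ccl5 had 2.50, 1.49 and 2.33 TPM in WT saline and 18.9, 7.04, 7.55 and 5.83 TPM in WT ConA mice, with replicate 1 far above the others (1.68, SE 0.34, adjusted p 0.00259). Ccl9, already abundant, rose to 143, 126, 108 and 117 TPM in the WT ConA mice (0.82, SE 0.14, adjusted p 0.00117). Ccl6 had 4.82, 3.05 and 2.55 TPM in WT saline and 4.01, 3.06, 1.72 and 3.66 TPM in WT ConA (log2 fold change -0.13, 95% confidence interval -0.68 to 0.43, adjusted p 0.696). The groups overlapped for Ccl6, and its difference changed sign without WT ConA replicate 3 (0.06) or WT saline replicate 1 (0.08).

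Comparing KO ConA with KO saline asks the same of the Ythdf1 knockout. Of the 10 members 8 passed the filter and 8 were called higher, where 33.9% of the 10988 genes tested were called higher. In 7 of them every ConA mouse lay above every saline mouse, as in 32.8% of genes tested. The median log2 fold change was 1.83, against 0.07 over all genes tested, and Ccl2, Ccl3, Ccl4, Ccl7 and Ccl8 passed the filter through the ConA mice alone.

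Ccl2 had 0.64, 0.21 and 0.69 TPM in KO saline and 127, 184, 266 and 120.1 TPM in the KO ConA mice (log2 fold change 6.80, SE 0.26, adjusted p 9.30e-09). Ccl7 had 0.11, 0.21 and 0.10 TPM in KO saline and 33.2, 36.3, 103.8 and 43.7 TPM in the KO ConA mice (5.44, SE 0.33, adjusted p 2.23e-07). Replicate 3 was the highest KO ConA mouse for both. Ccl8 had 0 to 0.17 TPM in KO saline and 3.11, 2.26, 3.41 and 1.01 TPM in the KO ConA mice (1.58, SE 0.25, adjusted p 0.000217). Ccl12 had 0.17, 0 and 0 TPM in KO saline and 0.66, 1.65, 1.18 and 0 TPM in the KO ConA mice, so the groups overlapped, and it was not tested.

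Ccl3 had 0 to 0.11 TPM in KO saline and 3.12, 2.89, 5.11 and 1.68 TPM in the KO ConA mice (log2 fold change 1.91, SE 0.24, adjusted p 4.08e-05). Ccl4 had 0.13 to 0.26 TPM in KO saline and 10.8, 8.92, 20.1 and 7.25 TPM in the KO ConA mice (3.30, SE 0.28, adjusted p 2.30e-06). As in WT ConA, Ccl4 was the more abundant of this pair in every mouse, by 3.09 to 4.32 times. Ccl5 had 18.2, 15.6, 29.6 and 5.80 TPM in the KO ConA mice, with replicate 4 just above the highest KO saline mouse at 4.85 TPM (1.74, SE 0.40, adjusted p 0.00277). Ccl9 had 85.9, 85.6, 154 and 113 TPM in the KO ConA mice (1.07, SE 0.21, adjusted p 0.000924). Ccl6 had 8.57, 4.16, 8.82 and 3.36 TPM in the KO ConA mice, and replicate 4 lay within the KO saline range of 1.76 to 3.90 TPM (0.82, SE 0.31, adjusted p 0.0402). The call of Ccl6 was lost without KO ConA replicate 1 (adjusted p 0.0935) or 3 (0.0935), without KO saline replicate 2 (0.168) or 3 (0.077), in rescaled libraries (0.0722) and with no filter (0.0901), and over all alternatives its adjusted p ran from 0.000707 to 0.168.

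**Figure D3:**
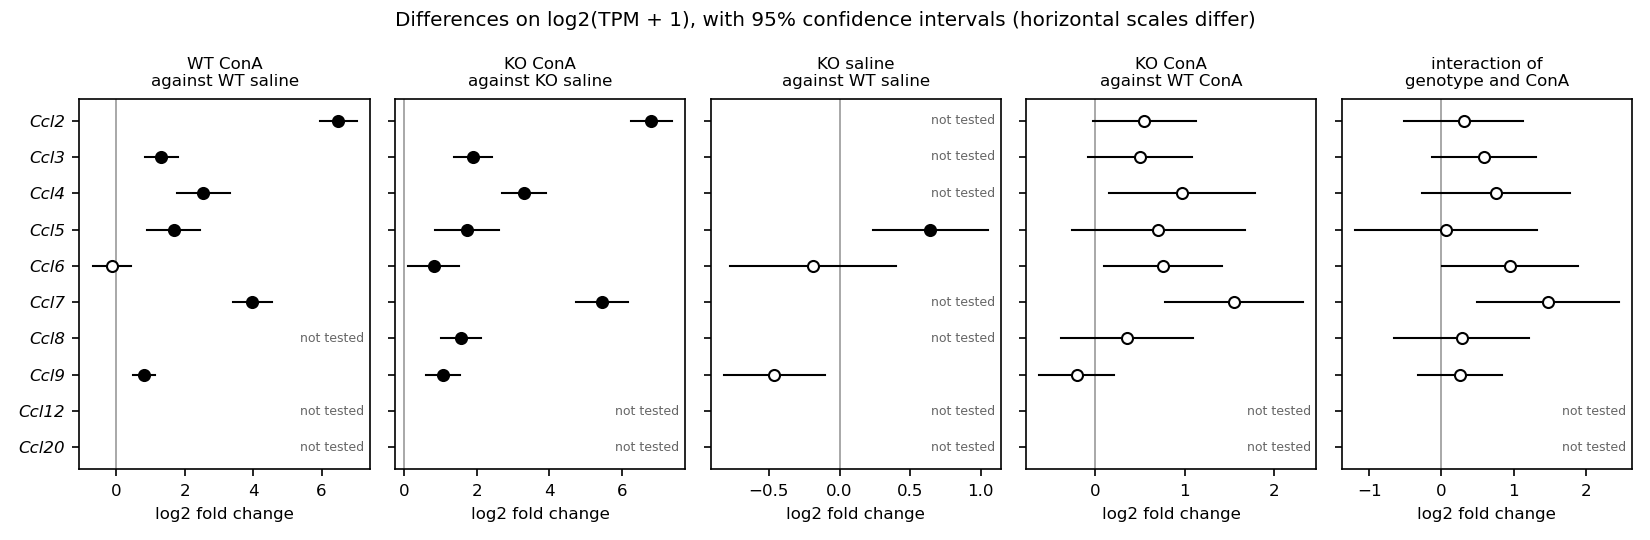
Log2 fold change on log2(TPM + 1) of each CC chemokine in the 5 comparisons (points) with its 95% confidence interval (lines) and a horizontal scale for each comparison. Filled points have an adjusted p under 0.05, open points do not, and the members without a point did not pass the filter. In KO ConA against WT ConA all points are open, and that of Ccl7 lies farthest from 0, at 1.56.

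Comparing KO with WT in saline mice asks whether the family differed before hepatitis. Only Ccl5, Ccl6 and Ccl9 passed the filter, and 1 of the 3 was called, where 19.2% of the 10459 genes tested were called in either direction. Ccl5 was higher in every KO saline mouse (4.85, 3.42 and 3.27 TPM) than in any WT saline mouse (2.50, 1.49 and 2.33 TPM), with a log2 fold change of 0.64 (SE 0.17, adjusted p 0.0425). With WT saline replicates 2 and 3 averaged the adjusted p was 0.121, and over the alternatives it ran from 0.0237 to 0.436. The call was also lost without WT saline replicate 2 (0.136) or 3 (0.126), without KO saline replicate 1 (0.109) or 2 (0.0768), with no filter (0.0844) and with all 14 libraries in the fit (0.436). T cells and NK cells are known makers of Ccl5. The summed TPM of the 9 T cell markers listed was 1.75 to 2.79 in WT saline and 3.38 to 3.96 in KO saline, with the defining markers Cd3e and Cd3d under 1 TPM and above 0 in all 6, and that of the 6 NK cell markers was 1.81 to 2.19 and 1.46 to 2.18. Their part in the Ccl5 difference was not tested. Ccl9 was lower on average in KO (log2 fold change -0.46, SE 0.15, adjusted p 0.07), but WT saline replicate 1 at 59.6 TPM lay below KO saline replicate 3 at 61.3 TPM. Ccl6 overlapped between the groups (-0.19, 95% confidence interval -0.77 to 0.40).

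Comparing KO ConA with WT ConA asks whether loss of Ythdf1 altered the family during hepatitis. No member was called. In the limma test 0 of 8 tested members had an adjusted p under 0.05, where 0.428% of the 10519 genes tested were called, and 3 of the 8 (Ccl4, Ccl6 and Ccl7) had an unadjusted p under 0.05, where 16.7% of genes did. The log2 fold change was above 0 for 7 of 8 members, with a median of 0.63 against 0.05 over all genes tested, and 1 member, Ccl7, had every KO mouse above every WT mouse, as did 6.37% of genes tested. For the other 7 the ranges of the genotypes overlapped.

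Ccl7 showed the largest difference among the members. Its KO ConA values of 33.2, 36.3, 103.8 and 43.7 TPM all lay above the WT ConA values of 24.8, 17.5, 10.4 and 13.7 TPM, and the log2 fold change was 1.56 (SE 0.35, 95% confidence interval 0.79 to 2.33, adjusted p 0.0674). With all 14 libraries in the model it was called (adjusted p 0.01), and over the alternatives its adjusted p ran from 0.01 to 0.146 and its log2 fold change from 1.01 to 1.76. Its partner Ccl2 overlapped between the genotypes, with 78.5 to 146 TPM in the WT ConA mice and 120.1 to 266 TPM in the KO ConA mice (0.55, 95% confidence interval -0.03 to 1.13, adjusted p 0.326). Per mouse, TPM of Ccl7 was 0.106 to 0.230 times that of Ccl2 in the WT ConA mice and 0.197 to 0.390 times in KO ConA. WT ConA replicate 1, at 0.230, lay above KO ConA replicate 2, at 0.197, so these ratios overlapped. Ccl8 had a log2 fold change of 0.35 (95% confidence interval -0.39 to 1.1), and Ccl12 was not tested.

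Ccl4 had 2.94 to 10.4 TPM in the WT ConA mice and 7.25 to 20.1 TPM in the KO ConA mice (log2 fold change 0.97, 95% confidence interval 0.16 to 1.79, adjusted p 0.221). The WT ConA mouse with the highest Ccl4, replicate 1, lay above KO ConA replicates 2 and 4. Ccl3 differed by 0.50 (95% confidence interval -0.09 to 1.08, adjusted p 0.383) and Ccl5 by 0.71 (-0.27 to 1.68, adjusted p 0.467). Ccl6 had 1.72 to 4.01 TPM in the WT ConA mice and 3.36 to 8.82 TPM in the KO ConA mice (0.76, 95% confidence interval 0.10 to 1.42, adjusted p 0.239). Ccl9 was the member with a negative difference (-0.21, 95% confidence interval -0.63 to 0.21, adjusted p 0.639), and KO ConA replicate 3 at 154 TPM was the highest of all 14 mice. Ccl20, which draws cells with CCR6 such as Th17 cells and immature dendritic cells, was listed at 0 in all 6 saline mice and at 0 to 0.11 TPM in the ConA mice.

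The interaction of genotype and ConA tests whether the response to ConA itself differed between the genotypes. In limma 0 of 8 tested members were called, where 4.78% of the 11327 genes tested were, and 2 of the 8 (Ccl6 and Ccl7) had an unadjusted p under 0.05, where 25.3% of genes did. The largest term was that of Ccl7 (log2 1.47, SE 0.46, 95% confidence interval 0.49 to 2.45, adjusted p 0.0743). It was called without WT ConA replicate 1 (adjusted p 0.0452) and with both ConA replicates numbered 3 left out (0.0302), and over the alternatives its adjusted p ran from 0.0302 to 0.247. Without that pair of replicates its term was smaller, 0.92. The term was 0.95 for Ccl6 (SE 0.44, adjusted p 0.197) and 0.06 for Ccl5 (95% confidence interval -1.2 to 1.33, adjusted p 0.953). Rescaling the libraries by their median ratio shifted the median of all genes by over 0.1 in this comparison, from 0.14 to 0.00 (log2), and turned the term of Ccl5 to -0.07, while the terms of the other 7 members stayed above 0. In KO saline against WT saline the same rescaling moved the median of all genes from -0.10 to 0.00.

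By Pearson's r among the ConA mice, the tested members other than Ccl9 varied more closely with each other than with Ccl9. KO ConA replicate 3 was the highest KO ConA mouse for 8 of the 10 members and the highest of all 14 mice for 7, Ccl2, Ccl3, Ccl4, Ccl5, Ccl6, Ccl7 and Ccl9. WT ConA replicate 1 was the highest WT ConA mouse for 7 members, and WT ConA replicate 3 the lowest for 6. These replicates 3 had the smallest scaling factors by median ratio, 0.846 in the KO ConA mice and 0.815 in WT ConA, against 1.0 to 1.16 in the other 6 ConA mice, so rescaling raises their values. Over the 8 ConA mice, Pearson's r between 2 members ran from 0.03 to 0.94 in the 28 pairs of tested members, with a median of 0.74, and from -0.46 to 0.95 with a median of 0.53 without KO ConA replicate 3. The 7 pairs with Ccl9 had r of 0.03 to 0.26, and -0.46 to -0.05 without that mouse. By Spearman's rank correlation pairs with and without Ccl9 overlapped, as with 0.21 for Ccl2 and Ccl8 and 0.33 for Ccl8 and Ccl9. The points of these correlations share libraries and genotypes and are given as a description.

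The genes whose pattern over the 8 ConA mice was most like that of a member, by Pearson's r of log2(TPM + 1), differed between members. For Ccl7 they were Cxcl5 (r 0.98, Spearman's rank correlation 0.99), a neutrophil-attracting chemokine, Ralgds (0.98) and Plaur (0.97), the urokinase receptor. For Ccl8 they were Cd83 (0.98), Clec4f (0.98), the defining Kupffer cell marker, and C1qc (0.97), a complement gene of macrophages. For Ccl3 they were Cd40 (0.99), Tnfrsf9 (0.98) and Panx1 (0.97), and for Ccl4 Ptgs2 (0.97), Cd74 (0.97) and Gsn (0.97). For Ccl5 they were Colec11 (0.99), Cyba (0.99) and Tgfb1 (0.98), and for Ccl6 Slc43a3 (0.96), Cytip (0.96) and H2-Eb1 (0.96). For Ccl2 they were Pdpn (0.92), Fstl1 (0.92) and Snrpa1 (0.91), and for Ccl9 Upk3b (0.95), Akr1c19 (0.94) and Slc27a5 (0.93), the last a bile acid enzyme of hepatocytes. These are the 3 highest of all genes tested for each member, over 8 mice.

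Markers of the cells that make or follow these ligands differed as well, in lists of genes known from each cell type. Of 9 neutrophil markers 8 were called higher after ConA in each genotype, and of 5 tested monocyte markers 4. Of all genes tested 22.0% were called higher in WT and 33.9% in KO livers. Of the called markers, the neutrophil markers Mmp8, Mmp9, Retnlg and Ngp and the monocyte markers Ly6c2, Chil3 and Itgam were under 1 TPM in every saline mouse, so they passed the filter through the ConA mice alone and had to be higher. The neutrophil marker Ly6g was not called and had a difference below 0 (log2 fold change -1.15, adjusted p 0.0631 in WT, and -0.21, adjusted p 0.37 in KO). Of 7 Kupffer cell markers 6 were called lower in WT and 3 in KO livers, where 31.0% and 30.7% of genes tested were called lower. Among those called in WT, Adgre1 was at most 0.89 TPM in the WT ConA mice. It passed the filter through the WT saline mice alone and had to be lower. The summed TPM of the neutrophil markers was 5.42 to 11.6 in the saline mice, 328 to 580 in the WT ConA mice and 425 to 985 in the KO ConA mice, most of it from S100a8 and S100a9. The 7 listed monocyte markers summed to 25.3 to 57.3 TPM in the saline mice, 50.7 to 98.0 in the WT ConA mice and 49.9 to 156 in the KO ConA mice. The 7 Kupffer cell markers summed to 39.4 to 145 TPM in the saline mice, 12.6 to 50.4 in the WT ConA mice and 9.13 to 39.6 in the KO ConA mice, with Clec4f at 1.03 to 7.98 TPM in the ConA mice. WT ConA replicate 1 had the highest Kupffer sum of the ConA mice and the highest Ccl8, and KO ConA replicate 4 the lowest Kupffer sum and the lowest Ccl5 and Ccl8 of its group. KO ConA replicate 4 was the lowest of its group for 7 of the 10 members. It was also lowest there for the monocyte, neutrophil, T cell, NK cell, sinusoidal endothelial and stellate cell sums, so its low values were not particular to Kupffer cell markers. Between KO ConA and WT ConA 8 of 9 tested neutrophil markers, 3 of 4 Kupffer cell markers and 4 of 5 monocyte markers had a difference above 0, and 0 of these lists' markers were called by limma, with an unadjusted p under 0.05 for 6 neutrophil, 0 Kupffer cell and 0 monocyte markers. Of all genes tested 16.7% had an unadjusted p under 0.05 there. Neutrophils and monocytes are known to enter inflamed liver, and Kupffer cells are its resident macrophages. The sums of all 3 lists overlapped between the ConA genotypes. The T cell markers summed to 4.35 to 6.21 TPM in the WT ConA mice and 7.11 to 9.66 TPM in the KO ConA mice, where 6.37% of genes tested also had every KO mouse above every WT mouse, and the NK cell markers to 2.87 to 10.4 and 5.50 to 12.1 TPM. The single T cell marker tested there, Cd8b1, overlapped between the genotypes and was not called (log2 fold change 0.44, adjusted p 0.289), and 0 of 2 NK cell markers were called by limma, with an unadjusted p under 0.05 for 0. Stellate cell markers, 7 in all, summed to 17.1 to 68.8 TPM in WT saline, 62.7 to 106 in KO saline mice, 24.1 to 68.9 in the WT ConA mice and 55.4 to 110.3 in the KO ConA mice, and the 7 sinusoidal endothelial cell markers to 22.7 to 31.6, 36.8 to 60.5, 19.8 to 45.0 and 23.7 to 51.9. In KO saline against WT saline 2 of 7 stellate and 4 of 6 endothelial cell markers tested were called higher. Of all genes tested 19.2% were called there in either direction. The stellate markers called, Lrat and Des, passed the filter through the KO saline mice, since only WT saline replicate 1 reached 1 TPM in WT saline. Their count is therefore no support for a difference of the stellate list. In KO ConA against WT ConA 0 of 3 stellate and 0 of 6 endothelial cell markers were called, with an unadjusted p under 0.05 for 3 and 1. Of the defining markers of these lists, Ncr1 was at 0 in 2 libraries and Klrb1c in 1, both of the NK cell list, and no other was at 0. The 7 hepatocyte markers, which hold a large part of all TPM, summed to 118540 to 146100 TPM in the saline mice and 52947 to 85242 TPM in the ConA mice, with 5 called lower in WT and 6 in KO livers, and 0 called between the ConA genotypes (unadjusted p under 0.05 for 1). No B cell marker passed the filter between the ConA genotypes, and 0 of 1 dendritic cell marker and 0 of 4 cholangiocyte markers were called, with an unadjusted p under 0.05 for 0 and 1. The part of these cells in the differences of the members was not tested.

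**Figure D4:**
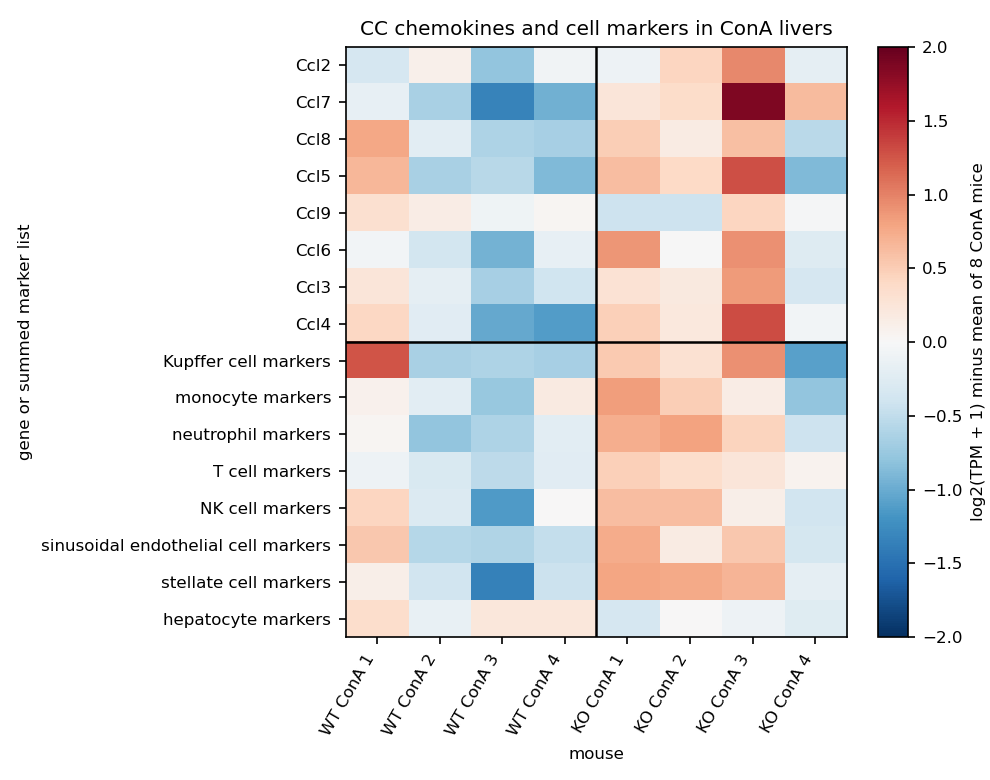
Deviation of 8 CC chemokines (upper rows) and of the summed TPM of 8 marker lists (lower rows) from the mean of the 8 ConA mice, on log2(TPM + 1), with red above and blue below. Columns are mice, WT ConA left of the vertical line and KO ConA right of it. Ccl3, Ccl4, Ccl5, Ccl8, Ccl9 and every marker list but that of T cells are above the mean in WT ConA replicate 1 and below it in KO ConA replicate 4. Ccl7 is above its mean in all 4 KO ConA mice.

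Of 13 other CC ligands in the tables, 6 passed the filter in WT ConA against WT saline, with 3 called higher and 2 lower (31.0% of genes tested were called lower there), and 8 passed in KO ConA against KO saline, with 5 called higher and 2 lower (30.7% of genes tested called lower). Called higher were 22.0% of genes tested in WT and 33.9% in KO livers. Ccl11 in both genotypes, Ccl19 in WT and Ccl17 and Ccl22 in KO passed the filter through the ConA mice alone. Ccl11, the eotaxin gene between Ccl7 and Ccl12, had 0 to 0.08 TPM in the saline mice, 4.51 to 26.0 TPM in the WT ConA mice and 14.8 to 34.8 TPM in the KO ConA mice. It was called after ConA in WT (log2 fold change 3.34) and KO livers (4.72), and differed by 1.35 between the ConA genotypes (adjusted p 0.156). Ccl24, another eotaxin, had 0.63 to 1.72 TPM in the saline mice, 4.11 to 27.5 TPM in the WT ConA mice and 7.94 to 30.6 TPM in the KO ConA mice and was called in both. Ccl22 and Ccl17, ligands of CCR4, were at or under 1.1 and 1.49 TPM in WT ConA and at 1.5 to 4.35 and 1.0 to 7.39 TPM in the KO ConA mice. Ccl22 was higher in every KO ConA mouse than in any WT ConA mouse (log2 fold change 1.04, adjusted p 0.0837), and Ccl17 overlapped (1.06, adjusted p 0.246).

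In KO saline against WT saline 2 of 5 other ligands tested, Ccl21a and Ccl27a, were called higher. Of all genes tested 19.2% were called there in either direction. In the interaction 0 of 9 other ligands were called by limma, with an unadjusted p under 0.05 for 3, as for 25.3% of genes tested. Ccl25, a ligand of CCR9, stayed at 2.96 to 5.12 TPM in all 14 mice, with a difference of 0.21 between the ConA genotypes (adjusted p 0.589). Ccl27a had 18.1 to 46.3 TPM in the saline mice and 3.74 to 6.98 TPM after ConA, and was called lower in both genotypes. Ccl19, a ligand of CCR7, had 0 to 2.25 TPM in the saline mice, 2.86 to 6.36 in the WT ConA mice and 5.01 to 17.9 in the KO ConA mice (log2 fold change between the ConA genotypes 0.84, adjusted p 0.263). Ccl21a, also a CCR7 ligand, was the single other ligand called between the ConA genotypes (log2 fold change 1.2, SE 0.22, adjusted p 0.0497). It had 0 to 0.57 TPM in the WT ConA mice and 1.04 to 2.83 TPM in the KO ConA mice, so it passed the filter there through the KO ConA mice alone and had to differ. For these last 3 genes 33.6%, 40.9% and 28.4% of the 50-base stretches occur in no other gene, in the order Ccl27a, Ccl19 and Ccl21a, so their values are uncertain.

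Of the 15 CC receptors in the tables few reached 1 TPM, and 3 were tested in WT ConA against WT saline (2 called higher) and 4 in KO ConA against KO saline (4 called higher). The called receptors, Ccr1 and Ccrl2 in both and Ccr7 and Ackr1 in KO, passed the filter through the ConA mice, since no more than 1 saline mouse of the comparison reached 1 TPM, so these counts are no support for a rise of the receptors. Ccr1, the receptor of Ccl3, Ccl5, Ccl6, Ccl7 and Ccl9, had 0 to 0.09 TPM in the saline mice, 1.06 to 3.20 TPM in the WT ConA mice and 1.68 to 5.08 TPM in the KO ConA mice (log2 fold change after ConA 1.49 in WT and 1.86 in KO). Ccrl2, an atypical receptor that presents chemerin and does not signal for migration, had 0.42 to 1.05 TPM in the saline mice, 30.4 to 48.0 TPM in the WT ConA mice and 45.6 to 62.0 TPM in the KO ConA mice (4.61 in WT and 4.94 in KO). Ccr7, the receptor of Ccl19 and Ccl21a, had at most 1.08 TPM in the WT ConA mice and 2.42 TPM in the KO ConA mice. Ackr1, which binds chemokines without signalling on endothelium, had 0.37 to 2.28 TPM in the ConA mice. Ccr2, the receptor of Ccl2, Ccl7 and Ccl12, stayed at 0.09 to 1.09 TPM in all 14 mice. Between KO ConA and WT ConA 0 of the 4 tested receptors were called by limma. An unadjusted p under 0.05 was found for 2 of the 4 (Ccrl2 and Ccr7) and for 16.7% of genes tested. The differences of the 4 receptors were 0.41 for Ccr1 (adjusted p 0.508), 0.50 for Ccrl2 (0.196), 0.61 for Ccr7 (0.184) and 0.33 for Ackr1 (0.611). No receptor passed the filter in KO saline against WT saline, and in the interaction 0 of 5 were called, with 0 under an unadjusted p of 0.05.

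**Figure D5:**
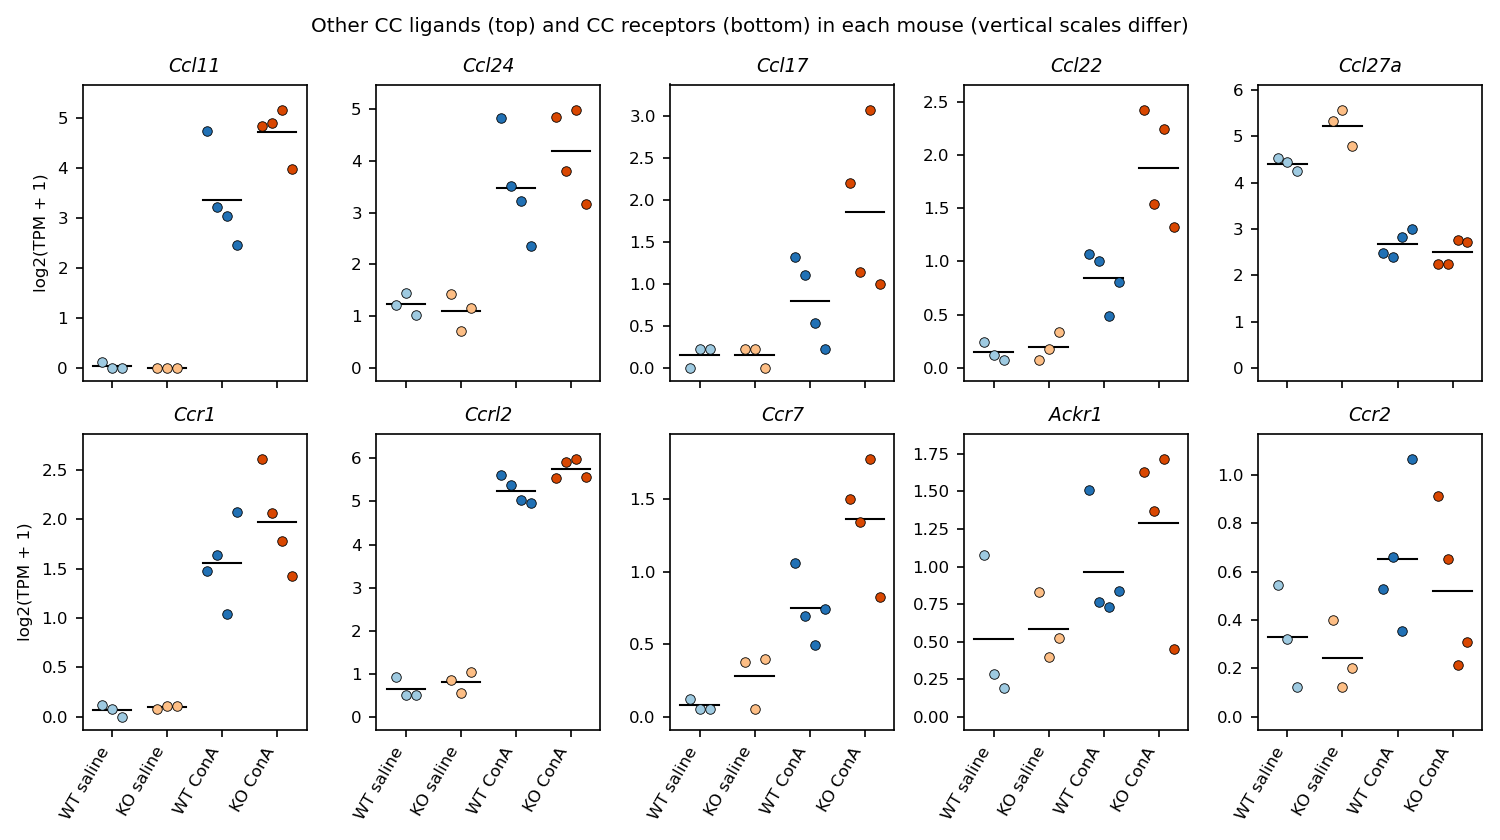
Level of 5 other CC ligands (top) and 5 CC receptors (bottom) in each mouse as log2(TPM + 1), with 1 point per mouse, a line at the group mean and a separate vertical scale for each gene. Ccl11 and Ccrl2 are low in all saline mice and high in all ConA mice, Ccl27a is lower in every ConA mouse than in any saline mouse, and Ccr2 overlaps among the 4 groups.

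Of 20 genes of receptor signalling, among them Gi subunits, arrestins, kinases and small GTPases, 12 were tested in WT ConA against WT saline, with 1 called higher and 2 lower, and 13 in KO ConA against KO saline, with 7 called higher and 2 lower. Of all genes tested 22.0% were called higher and 31.0% lower in WT, and 33.9% and 30.7% in KO livers. In KO ConA against WT ConA 0 of 12 signalling genes were called by limma and 4 had an unadjusted p under 0.05, as did 16.7% of genes tested. The 3 signalling genes with the smallest p there were Jak2 (log2 fold change 0.65, adjusted p 0.163), a kinase of cytokine receptors, Rhoa (0.43, adjusted p 0.204), a GTPase of cell contraction, and Ptk2b (0.49, adjusted p 0.265), a kinase activated by chemokine receptors. Ptk2b was called lower after ConA in both WT (log2 fold change -1.58) and KO livers (-1.06). In KO saline against WT saline 0 of 11 signalling genes were called, with an unadjusted p under 0.05 for 2, and in the interaction 0 of 13, with 3. Of all genes tested 19.2% and 4.78% were called there, and 25.3% had an unadjusted p under 0.05 in the interaction. Some of the signalling genes, among them Rhoa, are known to be expressed in hepatocytes and other resident cells as well as in leukocytes.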

How the data were processed

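Liver total RNA of 14 mice was sequenced as single reads of 50 bases on a BGISEQ-500. The authors deposited 1 table per mouse of TPM for 17656 genes, with 2 decimals. The submitters' processing notes name Bowtie2, RSEM 1.3.1 and GRCm38.p6, while the study's methods name another aligner and counter, so the exact route to TPM is unsure. Each TPM library sums to 1000000, and read depth is not given in the sources used here, so no counting error was computed and a value of 0 is read as listed at 0.

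From these TPM values, limma 3.58.1 (R 4.3.3; lmFit and eBayes with a mean-variance trend) was run on log2(TPM + 1) over all genes that reached 1 TPM in a number of libraries equal to the size of the smaller group (3 for the interaction), with Benjamini-Hochberg adjusted p under 0.05 as a call. Pairwise comparisons used their own 2 groups, and the interaction used all 14 libraries. The labels call the replicates independent. Samples were grouped by the labels' genotype and treatment. The method recovered the median size of a fixed log2 change planted in simulated data for the pairwise comparisons. Other sizes of change and the interaction were not simulated. The members, the other ligands, receptors, signalling genes and marker lists were chosen with earlier results of these data known. Named with values were all 10 members, the other ligands and receptors tested between the ConA genotypes, the 3 signalling genes with the smallest p there and the 3 genes most like each member. Ccr2 was added, after its values were seen, as a receptor of members. Alternatives changed the pseudocount, filter, scaling, model and libraries used. Drawings used matplotlib 3.10.9.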

Additional observations from a re-analysis of the deposited data

Results flagged for a closer look

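Within the ConA groups of 4 mice, a single mouse stood apart by Dixon's test at its 95% level for 2 members. Ccl12 had 0.64 TPM in WT ConA replicate 4, against 0.29 to 0.32 TPM in the other 3 mice of that group. Ccl20 had 0.09 TPM in WT ConA replicate 3 and was listed at 0 in the other 3. With the other values tied at 0, any value above 0 stands apart by construction, so for Ccl20 the test says nothing. Both are values under 1 TPM, where the unknown depth sets how many reads a value holds. Chance marks about 1 in 20 such groups, and all 10 members were tried in both ConA groups. A mark such as that of Ccl12 can therefore come from chance.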

How the results depend on the processing

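Without read depth the precision of low values is unknown. Single-mouse omissions gave 6 to 7 called members in WT ConA against WT saline, 7 to 8 in KO ConA against KO saline, 0 to 2 in KO saline against WT saline (0 without WT saline 2 or 3 or KO saline 1 or 2), 0 in KO ConA against WT ConA and 0 to 1 in the interaction (1 without WT ConA 1). In WT ConA against WT saline the member added was Ccl8, which the filter let in once WT saline held fewer mice. With a filter at 5 TPM 5 members were called in KO ConA against KO saline (fewer were tested). In KO saline against WT saline 0 were called with that filter, no filter, a log2 fold change of at least 1, all 14 libraries, or WT saline 2 and 3 averaged. KO ConA against WT ConA gave 1 with all 14 libraries, and the interaction 1 with both ConA replicates 3 left out. The causes were not tested.

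Over all genes, a log2 fold change of at least 1 left 2607 of 5704 calls in WT ConA against WT saline, 3453 of 7099 in KO ConA against KO saline, 173 of 2009 in KO saline against WT saline and 260 of 541 in the interaction. KO saline against WT saline gave 958 with no filter, 332 with all 14 libraries, 49 with WT saline 2 and 3 averaged and 45 to 2739 with a mouse left out (45 without WT saline 3). KO ConA against WT ConA (45, 36 higher) gave 3 with no filter, 29 rescaled (17 higher), 640 with all 14 libraries, 18 with no trend and 5 to 52 with a mouse left out. The interaction gave 345 with no filter, 28 with WT saline 2 and 3 averaged, 1591 without both ConA replicates 3 and 22 to 769 with a mouse left out.

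Replicate numbers are shared between groups, but same-numbered mice did not deviate together in every pair (correlations -0.19 to 0.41). With the replicate number as a block, 2 members were called in KO saline against WT saline, and over all genes 140 in KO ConA against WT ConA and 358 in the interaction.

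The sign turned for Ccl6 in WT ConA against WT saline, which was 0.060 without both ConA replicates 3 and -0.28 to 0.080 with a mouse left out (above 0 without WT ConA 3 or WT saline 1), and in KO saline against WT saline, -0.36 to 0.053 with a mouse left out (above 0 without WT saline 1 or KO saline 2). In the interaction it turned at a pseudocount of 0.1 for Ccl2 (-0.27), Ccl4 (-0.11) and Ccl5 (-0.090), and without both ConA replicates 3 for Ccl2 (-0.092), Ccl5 (-0.31) and Ccl8 (-0.00098). Ccl5 was also -0.074 when rescaled, and -0.25 to 0.48 with a mouse left out, below 0 in 7 of the 14 omissions.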
